A study of Mus musculus with 2 samples.

Results

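The levels of 10 liver genes, most with a part in IgG or complement handling, were compared between fatty livers without and with endotrophin (ETP). ETP is the fragment cleaved from the end of the collagen VI alpha 3 chain. The genes are the Fc gamma receptors *Fcgr1*, *Fcgr2b*, *Fcgr3* and *Fcgr4*, the adaptors *Fcer1g* and *Tyrobp*, the C1q chains *C1qa*, *C1qb* and *C1qc*, and *Cd68*. They were chosen by symbol and make up 10 of the 35275 genes of the deposited table. Both groups were male mice bred from several lines, some backcrossed to FVB, and the paper names no strain for the S1a line. They carried Alb-Cre+/-, which expresses Cre in hepatocytes, and Rosa rtTA+/-, which Cre switches on. They also carried S1a+/-, a truncated, constitutively active human SREBP1a under the PEPCK promoter that makes the liver fatty. S1a/ETP mice also carried TRE-ETP+/-, so that hepatocytes made ETP on doxycycline, and S1a/Ctrl littermates did not. All mice received chow with 200 mg/kg doxycycline for 10 months and were 12 months old. Each group was 1 library, made from the pooled RNA of 3 mice. The design thus had no replicates and allowed no p-value, and how a value varied from mouse to mouse is hidden in the pool.

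Fc gamma receptors bind the constant part of IgG. The activating receptors FcγRI, FcγRIII and FcγRIV, encoded by *Fcgr1*, *Fcgr3* and *Fcgr4*, signal through the common gamma chain, the product of *Fcer1g*, whose immunoreceptor tyrosine-based activation motif (ITAM) recruits the kinase SYK. *Tyrobp* encodes DAP12, a related ITAM adaptor that serves TREM2 and other receptors. FcγRIIb, from *Fcgr2b*, carries an inhibitory motif (ITIM) in its own tail that recruits the phosphatase SHIP1, and in liver it is abundant on sinusoidal endothelial cells, where it clears small immune complexes. C1q, which starts the classical complement pathway on antibody-coated targets, is built from A, B and C chains in equal numbers and is made mainly by macrophages, including the resident Kupffer cells. *Cd68* encodes macrosialin, a lysosomal glycoprotein of macrophages.

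The motifs show how these proteins divide into activating and inhibitory. The coding bases below are from the reference mouse genome (GRCm38, C57BL/6J), whereas lines behind these mice were backcrossed to FVB. The bases are written 5′ to 3′ on the coding strand with the tyrosine codons in capitals. The 2 ITAMs are each split by an intron between exons 4 and 5. The *Fcer1g* motif encodes residues 65 to 79 of 86 and lies within chr1:171229889-171230072 on the minus strand, the *Tyrobp* motif encodes residues 92 to 106 of 114 and lies within chr7:30415670-30417382 on the plus strand, and the *Fcgr2b* ITIM encodes residues 317 to 322 of 340 and lies at chr1:170961071-170961088 on the minus strand, in exon 10.
Fcer1g ITAM: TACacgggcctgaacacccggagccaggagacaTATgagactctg
Tyrobp ITAM: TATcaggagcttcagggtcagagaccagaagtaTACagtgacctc
Fcgr2b ITIM: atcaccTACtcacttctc
Both ITAMs hold a pair of tyrosine codons, and the ITIM holds 1. A search of the coding sequences of *Fcgr1*, *Fcgr3* and *Fcgr4* found no ITAM in any of them, so the values of *Fcer1g* stand beside those of the 3 receptors that depend on it.

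The libraries held 19245078 reads in S1a/Ctrl against 14538808 in S1a/ETP, recovered from FPKM, the number of fragments scaled to gene length and library depth. The change of a gene is given as the log2 ratio of S1a/ETP over S1a/Ctrl after 0.1 FPKM was added to both. It was computed over 16042 genes whose mean reached 0.1 FPKM, and all 10 genes were among them. The interval given beside each is a 95% Clopper-Pearson interval of the reads and covers counting error only. Differences between mice and between library preparations are not in it. The libraries also differed in markers of other tissues and cells. The 8 skeletal muscle markers had 2733 reads together in S1a/Ctrl against 5 in S1a/ETP, and the summed level of the neutrophil markers was 5.72 FPKM in S1a/Ctrl and 360 FPKM in S1a/ETP, with *Mpo*, *Elane*, *Ngp*, *Camp* and *Cxcr2* at 0 in S1a/Ctrl. In tissue RNA, more cells of a type and more RNA per cell cannot be told apart.

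Of the 10 genes, 8 had a higher level in the S1a/ETP pool and 2, *Fcgr1* and *Fcgr2b*, a lower one. Of all 16042 genes, 8541 were higher and 7501 lower. None was at least 2-fold higher, the size the study used, against 6.42% of all genes, and none was at least 2-fold lower, against 6.25%. The counting interval lay above 0 for 5 genes, which were *C1qa*, *C1qb*, *C1qc*, *Cd68* and *Fcgr4*, and below 0 for none. Over all genes, 22.4% had an interval above 0 and 17.5% below. Among the 8529 genes with as many reads as these 10, from 76 to 1722 in both libraries together, the shares were 23.9% and 16.4%. Of these 8529, only 187 reached the 2-fold size upward and 117 downward. Such a change was thus rare at this depth, and its absence among 10 genes says little. The figures for all genes, percentiles included, also cover genes with fewer reads. The median log2 ratio of the 10 genes was 0.30, and that of all genes was 0.03. *Cd68* had the highest of the 10 ratios and *Fcgr1* the lowest.

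**Figure D1:**
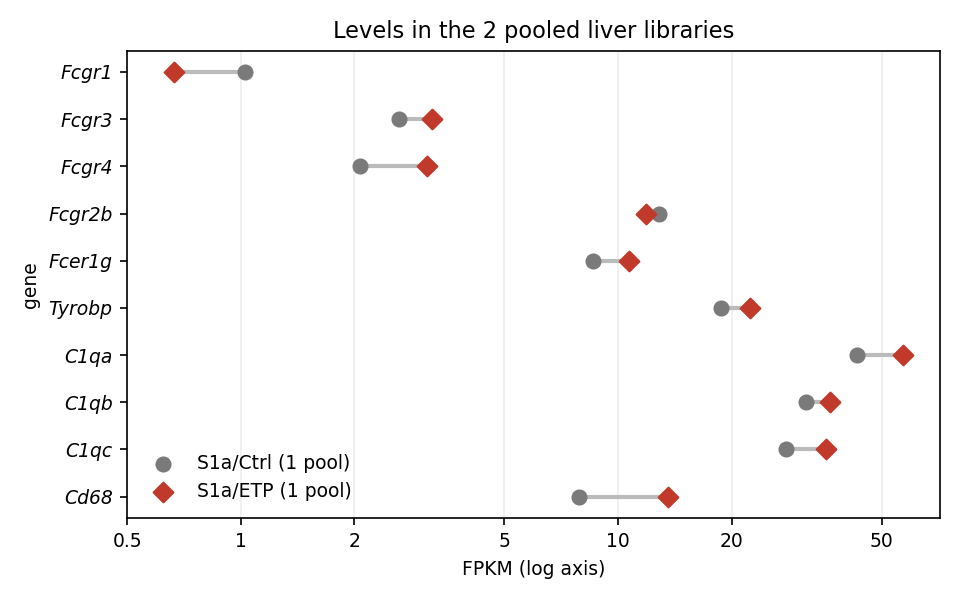
FPKM of each gene (log axis) in the S1a/Ctrl pool (grey circles) and the S1a/ETP pool (red diamonds), 1 library per group and so without error bars. The C1q chains had the highest levels, up to 57.0 FPKM, and *Fcgr1* the lowest; *Fcgr1* and *Fcgr2b* alone lay lower in S1a/ETP.

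The activating receptors did not share a direction. *Fcgr4* (ENSMUSG00000059089, chr1:171018920-171029761 in the table, mm10), a receptor for IgG2a and IgG2b in the mouse, was at 2.07 FPKM in S1a/Ctrl and 3.12 FPKM in S1a/ETP, from 50 and 57 reads. Its log2 ratio was 0.57, with an interval from 0.02 to 1.12 that only just cleared 0, and was higher than that of 86.5% of genes. *Fcgr3* (ENSMUSG00000059498, chr1:171051174-171064935), a low-affinity receptor of macrophages, neutrophils and NK cells, was at 2.62 FPKM and 3.22 FPKM from 68 and 63 reads, a ratio of 0.28 (interval −0.22 to 0.78). *Fcgr1* (ENSMUSG00000015947, chr3:96282909-96293969), the high-affinity receptor for IgG2a, was at 1.02 FPKM in S1a/Ctrl and 0.664 FPKM in S1a/ETP, from 51 and 25 reads, a ratio of −0.56 (interval −1.21 to 0.08) that came to −0.28 when 1 FPKM was added in place of 0.1. With so few reads, the intervals of *Fcgr3* and *Fcgr1* both held 0. The distance between *Fcgr1* and *Fcgr4* was nonetheless larger than their counting error. *Fcgr1* minus *Fcgr4* came to −1.21, with an exact interval of the difference from −2.17 to −0.28. Summed, the 3 activating receptors were at 5.72 FPKM and 7.003 FPKM, and their reads gave a log2 ratio of 0.18 (interval −0.15 to 0.51).

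*Fcgr2b* (ENSMUSG00000026656, chr1:170960558-170976547), the inhibitory receptor, was at 12.8 FPKM in S1a/Ctrl and 11.9 FPKM in S1a/ETP, from 555 and 389 reads. The log2 ratio was −0.11 (interval −0.30 to 0.08), which lies between the 25th and 75th percentiles of all genes (−0.24 and 0.29) and came to −0.04 with TPM. It was the most abundant of the 4 receptors in both pools, with 69.2% of their summed FPKM in S1a/Ctrl against 62.9% in S1a/ETP. The share of *Fcgr4* was 11.2% in S1a/Ctrl against 16.5% in S1a/ETP, that of *Fcgr3* was 14.2% and 17.0%, and that of *Fcgr1* was 5.52% and 3.52%. The sum of all 4 receptors stayed close, at 18.5 FPKM and 18.9 FPKM (log2 ratio from reads −0.03, interval −0.20 to 0.13).

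**Figure D2:**
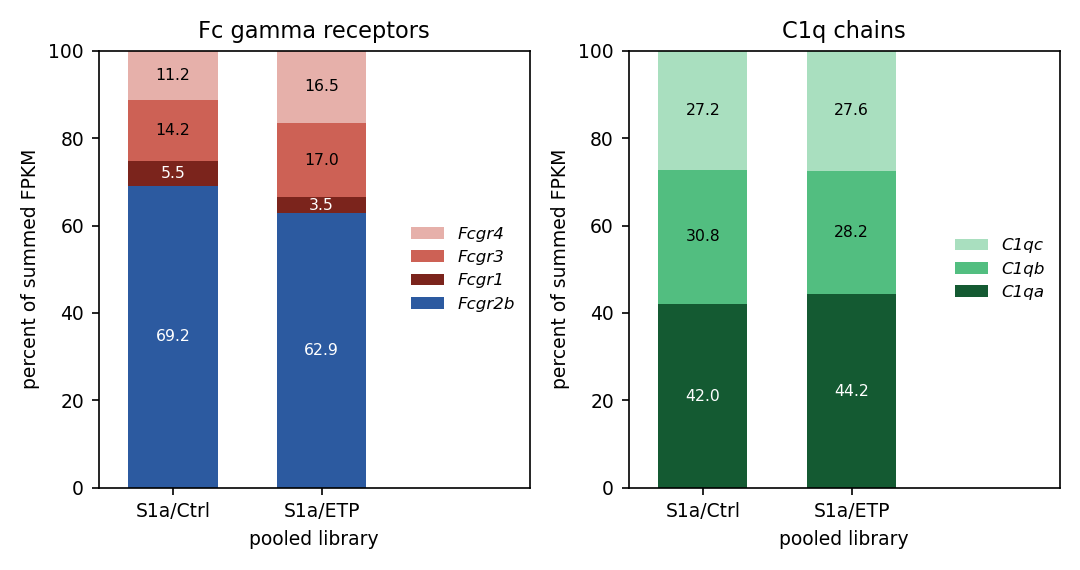
Share of each gene in the summed FPKM of the 4 Fc gamma receptors (left) and of the 3 C1q chains (right) in each pooled library, as stacked bars from 0 to 100 percent. *Fcgr2b* took 69.2% of receptor FPKM in S1a/Ctrl against 62.9% in S1a/ETP, while the shares of the C1q chains moved by less.

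The ratio of activating to inhibitory receptor FPKM does not depend on how the libraries are scaled to each other. It was 0.446 in S1a/Ctrl against 0.589 in S1a/ETP, a log2 change of 0.40. Summed reads, in which the longer *Fcgr1* weighs more than in summed FPKM, gave a change of 0.29 with an interval from −0.09 to 0.67. At this depth the reads thus showed no change beyond counting error. No interval was computed for the change of the FPKM ratio itself. The direction depended on the receptor. The change was −0.52 (interval −1.29 to 0.23) with *Fcgr1* alone, 0.40 (interval −0.15 to 0.96) with *Fcgr3* alone and 0.70 (interval 0.09 to 1.31) with *Fcgr4* alone.

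The absolute level of *Fcgr2b* rests on the length assigned to it. The table used 2250 bases, which is the length of a transcript with a retained intron in GENCODE M21, whereas its coding transcripts there run from 1084 to 3544 bases. With these lengths *Fcgr2b* would be at 26.6 FPKM in S1a/Ctrl and 24.7 FPKM in S1a/ETP, or at 8.14 FPKM and 7.55 FPKM. The activating to inhibitory ratio would then be 0.215 and 0.284, or 0.702 and 0.928. The change between the pools is the same under either length by construction, because a length cancels between them. This calculation was chosen after the values were seen.

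*Fcgr3* and *Fcgr2b* are also near-copies over part of their coding sequence, and reads from that part cannot be assigned to either with certainty. The longest run they share is printed because it sets where their reads can be confused. It is 129 bases long, in exons 3 and 4 of *Fcgr3* (within chr1:171054167-171057792, minus strand) and exons 5 and 6 of *Fcgr2b* (within chr1:170966674-170968081, minus strand, GRCm38).
Fcgr3 and Fcgr2b, shared run: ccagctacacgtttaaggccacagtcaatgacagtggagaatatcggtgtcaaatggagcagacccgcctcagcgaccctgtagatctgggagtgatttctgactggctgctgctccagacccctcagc
Of the stretches of 50 bases in the *Fcgr3* transcript, 12.8% occur in *Fcgr2b* as well, of those of 100 bases 3.53%, and of those of 150 bases 0%. Among the other receptor pairs, the longest shared run was 13 or 14 bases. The uncertainty therefore touches *Fcgr3* and *Fcgr2b*, and neither the read length nor the treatment of shared reads is stated in the sources used here.

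Both ITAM adaptors were more abundant than the activating receptors. *Fcer1g* (ENSMUSG00000058715, chr1:171229572-171234365) was at 8.56 FPKM in S1a/Ctrl and 10.7 FPKM in S1a/ETP, from 111 and 105 reads, a log2 ratio of 0.32 (interval −0.07 to 0.71). *Tyrobp* (ENSMUSG00000030579, chr7:30413788-30417577) was at 18.7 FPKM and 22.4 FPKM, from 203 and 184 reads, a ratio of 0.26 (interval −0.03 to 0.56). Neither interval cleared 0 on its own, and the reads of both adaptors together gave 0.28 (interval 0.05 to 0.52). The level of *Fcer1g* was 1.497 times the summed level of its 3 receptors in S1a/Ctrl against 1.53 times in S1a/ETP. *Tyrobp* was 2.19 times as abundant as *Fcer1g* in S1a/Ctrl against 2.09 times in S1a/ETP, so these proportions were much alike in both pools.

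The genes next to the adaptors had other ratios. *Apoa2*, an apolipoprotein gene of hepatocytes 3192 bases from *Fcer1g*, was at 11542 FPKM in S1a/Ctrl and 8139 FPKM in S1a/ETP (ratio −0.50). *Hcst*, which encodes the adaptor DAP10 and lies 139 bases from *Tyrobp*, had 12 reads in S1a/Ctrl against 4 in S1a/ETP. No gene of the table overlaps any of the 10.

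The 3 C1q chains lie side by side on chromosome 4 and all had higher levels in the S1a/ETP pool. *C1qa* (ENSMUSG00000036887, chr4:136895917-136898803) was at 43.0 FPKM in S1a/Ctrl and 57.0 FPKM in S1a/ETP, from 860 and 862 reads, a log2 ratio of 0.41 (interval 0.27 to 0.54). *C1qc* (ENSMUSG00000036896, chr4:136889804-136893065) was at 27.8 FPKM and 35.5 FPKM, from 644 and 621 reads, a ratio of 0.35 (interval 0.19 to 0.51). *C1qb* (ENSMUSG00000036905, chr4:136880129-136886187) was at 31.6 FPKM and 36.4 FPKM, from 661 and 575 reads, a ratio of 0.20 (interval 0.04 to 0.37). These are differences of 1.33-fold, 1.28-fold and 1.15-fold. Summed, the chains were at 102 FPKM and 129 FPKM, and their reads gave 0.33 (interval 0.24 to 0.42).

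The proportions of the chains were close in both pools. *C1qa* took 42.0% of their summed FPKM in S1a/Ctrl against 44.2% in S1a/ETP, *C1qb* 30.8% and 28.2%, and *C1qc* 27.2% and 27.6%. The difference between the ratios of *C1qa* and *C1qb* was 0.20, with an interval from −0.01 to 0.42.

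*Cd68* (ENSMUSG00000018774, chr11:69664213-69666153) differed most among the 10. It was at 7.90 FPKM in S1a/Ctrl and 13.5 FPKM in S1a/ETP, from 187 and 242 reads, which is 1.71-fold. Its log2 ratio of 0.77 (interval 0.49 to 1.05) was higher than that of 90.6% of genes. The neighboring *Eif4a1*, 782 bases away, was at 91.5 FPKM and 88.0 FPKM. Of the 45 pairs among the 10 genes, 18 had a difference whose interval did not hold 0. *Fcgr1* was in 8 of these pairs, and *Cd68* and *Fcgr2b* in 6 each. The pairs thus share genes, and no such count was made for pairs of other genes with as many reads. *Fcgr1* minus *Cd68* came to −1.40 (interval −2.21 to −0.62) and *Fcgr2b* minus *C1qa* to −0.52 (interval −0.75 to −0.28). The ratio of *C1qa* was below that of *Cd68* by −0.37 (interval −0.68 to −0.05).

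**Figure D3:**
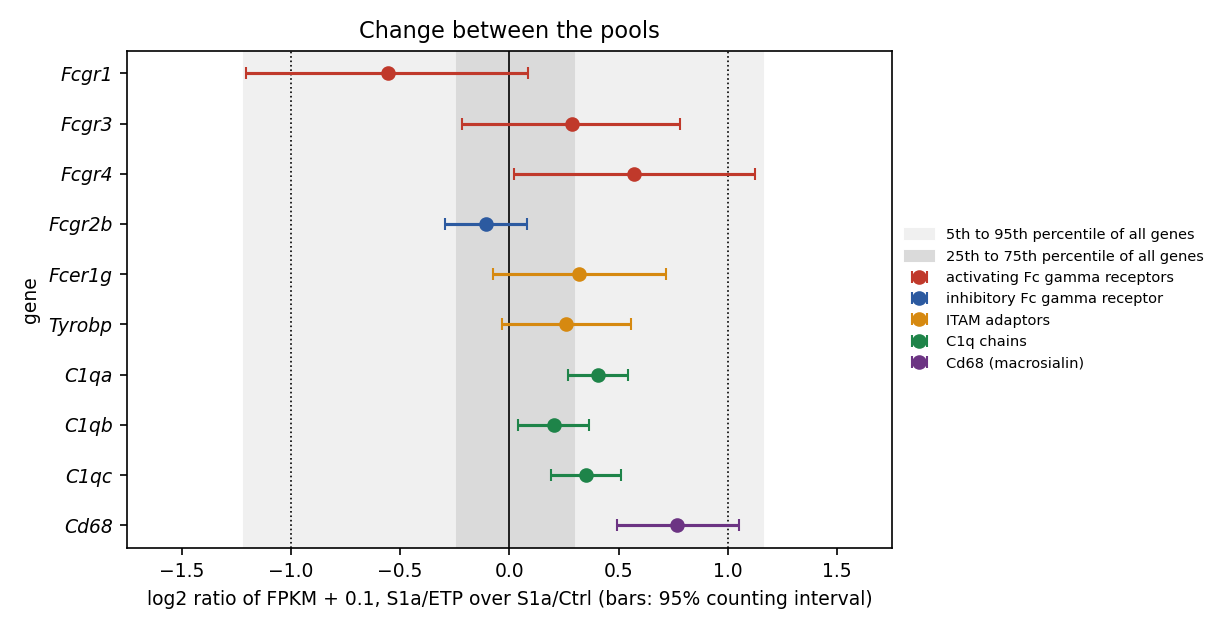
Log2 ratio of FPKM + 0.1, S1a/ETP over S1a/Ctrl, for each gene (points, colored by role) with its 95% counting interval (bars), over the range of all 16042 genes (dark band, 25th to 75th percentile; light band, 5th to 95th) and with dotted lines at 2-fold. Every point lies within the light band and between the dotted lines, from −0.56 for *Fcgr1* to 0.77 for *Cd68*.

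Marker genes of liver cells were set beside these values. All 8 Kupffer cell markers were higher in S1a/ETP, 6 of them with an interval above 0, and their sum was 84.5 FPKM in S1a/Ctrl and 113 FPKM in S1a/ETP (log2 ratio from reads 0.41, interval 0.35 to 0.48). *Cd5l*, a secreted macrophage protein gene, was at 37.6 FPKM and 49.8 FPKM (ratio 0.40), and *Vsig4*, a complement receptor gene of resident macrophages, at 11.0 FPKM and 16.3 FPKM (ratio 0.57). *Marco*, a scavenger receptor gene, had 5 and 17 reads. The 8 sinusoidal endothelial markers summed to 45.7 FPKM in S1a/Ctrl and 46.0 FPKM in S1a/ETP (0.02, interval −0.06 to 0.09), and none had an interval off 0. The most abundant of them, *Clec4g*, was at 18.9 FPKM and 19.4 FPKM.

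Each gene was then set against these markers within a library, a comparison chosen after the values were seen. *Cd5l* and *Clec4f* make up most of the Kupffer sum. The chains' summed FPKM was 121% of the markers' in S1a/Ctrl against 114% in S1a/ETP, a log2 change of −0.08 (interval −0.19 to 0.03). By chain the change was −0.01 for *C1qa* (interval −0.16 to 0.15), −0.06 for *C1qc* (interval −0.24 to 0.11) and −0.21 for *C1qb* (interval −0.39 to −0.03), so that *C1qb* alone of the 3 had an interval off 0. The ITAM adaptors differed by −0.13 against these markers (interval −0.37 to 0.12). *Cd68* was at 9.35% of the Kupffer marker sum in S1a/Ctrl against 12.0% in S1a/ETP, a change of 0.36 (interval 0.07 to 0.65). *Fcgr1* differed by −1.04 (interval −1.79 to −0.32) and *Fcgr2b* by −0.52 (interval −0.72 to −0.32) on the same scale. Against the sinusoidal endothelial markers, *Fcgr2b* was at 28.0% of the sum in S1a/Ctrl against 25.9% in S1a/ETP, a change of −0.12 (interval −0.33 to 0.08).

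Blood myeloid markers differed more. All 7 monocyte markers were higher in S1a/ETP. Their median ratio was 1.06, and their sum was 63.4 FPKM in S1a/Ctrl against 96.1 FPKM in S1a/ETP. The most abundant of them, *Lyz2*, which macrophages also express, was at 60.2 FPKM and 80.5 FPKM (ratio 0.42). The largest ratio of the 7, 6.21, was that of *Chil3* (0 and 163 reads) and depends on the added 0.1 FPKM. The paper counts *Chil3* among genes abundant in neutrophils, so this list is not specific to monocytes. All 8 neutrophil markers that passed the filter were at least 2-fold higher. Neutrophils carry *Fcgr3*, *Fcgr4*, *Fcer1g* and *Tyrobp*. The part of any of these cells, or of the muscle RNA, in the values of the 10 genes was not tested. The remaining marker lists had median ratios of 0.20 for dendritic cells, 0.15 for B and plasma cells, 0.10 for T and NK cells, 0.39 for stellate cells and −0.48 for bile duct. Some of these medians cover genes that went opposite ways. The T and NK cell list and the bile duct list each had 1 gene with an interval above 0 and 1 below. The stellate cell list had 4 above and 1 below.

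Antibody chain genes, which include the IgG chains that these receptors bind as well as chains of IgM and IgA, had a higher median ratio than the 10 genes. Of 13 antibody chain genes listed, 9 passed the filter, 8 of these were higher in S1a/ETP, 6 at least 2-fold, and their median log2 ratio was 1.39. The kappa light chain *Igkc* was at 54.7 FPKM in S1a/Ctrl and 143 FPKM in S1a/ETP, from 340 and 673 reads (1.39, interval 1.20 to 1.58). *Ighg1*, the constant region of IgG1, had 51 and 270 reads, 2.72 FPKM and 19.1 FPKM (2.76, interval 2.34 to 3.21). *Ighg2c* had 15 and 50 reads (1.98) and the lambda chain *Iglc2* 7 and 43 (2.83). The exception was *Ighg3*, named after its value was seen because it was the only one lower, with 18 reads in S1a/Ctrl against 1 in S1a/ETP. The constant regions of IgG resemble each other, so reads may be split between them. Of the B and plasma cell markers, *Jchain*, which is also in the antibody list, was at 3.36 FPKM in S1a/Ctrl and 7.55 FPKM in S1a/ETP, while the other 5 summed to 2.23 FPKM and 2.23 FPKM, from 55 and 42 reads.

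Among other Fc receptors, 14 were listed, 6 passed the filter and 5 of these were lower in S1a/ETP, with a median of −0.38. *Pigr*, which carries IgA across epithelium, was at 133 FPKM in S1a/Ctrl and 64.0 FPKM in S1a/ETP (−1.06). *Fcgrt*, the neonatal Fc receptor that recycles IgG, was at 136 FPKM and 128 FPKM (−0.09, interval −0.16 to −0.03). *Fcer2a*, the low-affinity IgE receptor of B cells, had 17 and 4 reads, and *Fcamr*, a receptor for IgA and IgM, 14 and 6. The hepatocyte markers had a median of −0.21 and summed to 51585 FPKM and 46251 FPKM. Their part in the value of *Pigr* was not tested.

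Receptors that use the same adaptors were mostly rare. Of 8 that pair with *Fcer1g*, 3 passed the filter, all higher in S1a/ETP, among them *Clec4n* (dectin-2, which binds fungal mannans) at 1.295 FPKM and 1.813 FPKM (0.45, interval −0.21 to 1.12) and *Cd300lf* with 41 and 40 reads (0.32, interval −0.25 to 0.88). Of 9 listed with *Tyrobp*, 7 passed, 5 of them higher. Which adaptor each listed receptor uses was not checked here. *Trem2*, a lipid receptor of macrophages, had 64 and 70 reads (0.48, interval 0.02 to 0.93), *Cd300lb* 17 and 32 (1.09, interval 0.36 to 1.80), and *Cd300ld* 77 and 54 (−0.10, interval −0.59 to 0.39). *Klrk1*, the NKG2D receptor of NK cells, had 18 and 10 (−0.32, interval −1.15 to 0.54).

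Of 15 genes of ITAM signaling, all passed the filter and 12 were higher in S1a/ETP, 8 with an interval above 0 and none below, with a median log2 ratio of 0.46. *Pik3ap1*, an adaptor for PI3-kinase and the most abundant, was at 13.4 FPKM and 18.5 FPKM (0.46, interval 0.30 to 0.61). *Rac2*, a GTPase of phagocytes, had 84 and 137 reads (1.06, interval 0.68 to 1.45) and was the only one at least 2-fold higher. *Plcg2*, the phospholipase below SYK, was at 0.423 FPKM and 0.913 FPKM (0.95, interval 0.41 to 1.49), and fell short of 2-fold only through the added 0.1 FPKM. Among inhibitory receptors and phosphatases, 7 of the 10 that passed were higher, 2 had an interval above 0, and the median was 0.24. *Ptpn11*, which encodes the phosphatase SHP2, was at 10.4 FPKM and 12.98 FPKM (0.32), *Sirpa*, the CD47 receptor, at 7.23 FPKM and 10.1 FPKM (0.48), and *Dok3*, an adaptor of the same family as *Dok1*, had 50 and 54 reads (0.49, interval −0.06 to 1.05). *Dok1*, an adaptor that restrains tyrosine kinases, had 47 and 17 reads (−0.95, interval −1.71 to −0.21).

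All 5 genes of the phagocyte NADPH oxidase, the enzyme that makes superoxide during phagocytosis, were higher in S1a/ETP, 3 at least 2-fold and 4 with an interval above 0, with a median of 1.77. *Cybb*, the catalytic subunit, was at 2.29 FPKM in S1a/Ctrl and 8.03 FPKM in S1a/ETP, from 209 and 555 reads (interval of the ratio 1.54 to 1.998). *Cyba*, its membrane partner, was at 9.46 FPKM and 15.7 FPKM (0.72, interval 0.40 to 1.06). The cytosolic subunits *Ncf1* (37 and 114 reads, 1.88) and *Ncf4* (34 and 98 reads, 1.85) were close to *Cybb*. These genes are abundant in neutrophils, whose markers moved in the same direction, and the part of neutrophils was not tested.

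The other classical complement genes went both ways. Of 10, 5 were higher and 5 lower in S1a/ETP, none reached 2-fold, 4 had an interval above 0 and 4 below, and the median was 0.05. *C3*, the central complement protein gene, was at 899 FPKM and 1272 FPKM (0.50), *C4b* at 267 FPKM and 355 FPKM (0.41), with reads that its near-copy *C4a* may share, and *C2*, the protease of the C3 convertase, at 6.61 FPKM and 4.79 FPKM (−0.46, interval −0.72 to −0.20). The genes of the proteases that form C1 with C1q, named after their values were seen, did not share a direction, and near-copies among them may share reads. *C1ra* was at 67.7 FPKM and 57.1 FPKM (−0.24, interval −0.32 to −0.17) and *C1s1* at 79.5 FPKM and 74.9 FPKM (−0.09, interval −0.15 to −0.02), which clears 0 by less than the shift that TPM brings. The rarer *C1rb* and *C1s2* had ratios of −0.22 (interval −0.60 to 0.16) and 0.19 (interval −0.17 to 0.55). All 6 C1q-binding protein genes that passed were higher, 4 with an interval above 0, with a median of 0.22. Of these, *Cd93* had 97 and 140 reads (0.85, interval 0.50 to 1.20), *Lair1*, an inhibitory receptor, 38 and 50 (0.71, interval 0.14 to 1.27), and *Calr*, the chaperone calreticulin, 243 FPKM and 290 FPKM (0.25).

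Other lysosomal membrane protein genes differed less than *Cd68*. Of 5 that passed, 3 were higher and 2 lower in S1a/ETP, with a median of 0.18. *Lamp1* was at 350 FPKM and 397 FPKM (0.18), *Cd63* at 41.2 FPKM and 53.6 FPKM (0.38), and *Laptm5*, which is restricted to blood cells, at 3.50 FPKM and 5.77 FPKM (0.71, interval 0.42 to 0.99). The ratio of *Laptm5* was the nearest to that of *Cd68*, at 0.77.

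**Figure D4:**
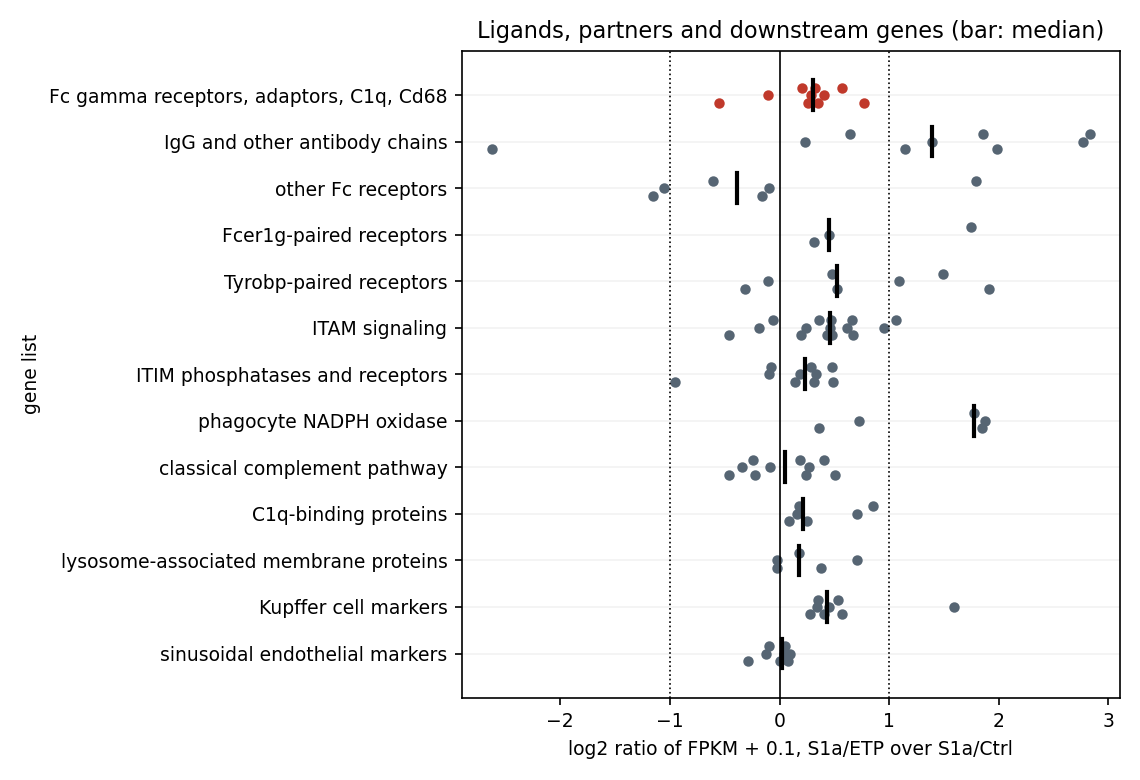
Log2 ratio of FPKM + 0.1, S1a/ETP over S1a/Ctrl, for every gene that passed the filter in each list (points, staggered only for visibility; bars, medians; dotted lines, 2-fold). The antibody chains and the NADPH oxidase have medians of 1.39 and 1.77, against 0.30 for the 10 genes in red; points of genes with no read in S1a/Ctrl depend on the added 0.1 FPKM.

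The promoters of the activating receptors were compared because these 3 genes did not share a direction. RefSeq windows (GRCm38.p6) from 250 bases before to 50 after a RefSeq gene start were found for 8 of the 10 genes, not for *C1qa* or *Tyrobp*. The RefSeq start used for *Fcgr3* lies inside the gene span given above, not at its upstream end. GAGGAA, a core that the macrophage factor PU.1 binds, was searched on both strands and occurs in 6 of the 8, namely *Fcgr1*, *Fcgr3*, *Fcgr4*, *C1qb*, *C1qc* and *Cd68*, against 31.3% of 27025 genes. The stretches of 30 bases around it lie at chr3:96294007-96294036 (minus strand) for *Fcgr1*, chr1:171059392-171059421 (minus strand) for *Fcgr3* and chr1:171018892-171018921 (plus strand) for *Fcgr4*, with the motif, here read on the other strand, in capitals.
Fcgr1: atggcaacttccTTCCTCttttctaatctt
Fcgr3: gagtccatttccTTCCTCtttttgtagttc
Fcgr4: aaggctatttacTTCCTCtcttctagtcaa
The 3 windows hold the same core in like surroundings, and the genes' ratios were −0.56, 0.28 and 0.57. TTCNNNGAA, the pattern of STAT factors, was searched as well. It can share bases with the core above, and of the 8 genes it occurs in *Fcgr1* alone, where the matches do not overlap, against 9.55% of all genes. A match describes the letters only.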

How the data were processed

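RNA from livers was sequenced as 1 pooled library of each group. The values deposited by the authors are FPKM, listed beside the ID, symbol, position and length of each gene. Tools named in the submitters' processing notes include edgeR 3.16.5, StringTie 1.3.3b, HTSeq 0.6.1 and STAR, with mm10 as the build, and the step of each is not stated. Annotation release: not given in the sources used here, nor are read filters or strand.

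Multiplying FPKM by gene length and depth gave whole reads for 100% of values within 0.01 reads. Genes were kept when their mean reached 0.1 FPKM, and ratios used a pseudocount of 0.1 FPKM. Intervals of 1 gene are Clopper-Pearson intervals of its reads; those of differences between genes, and of changes against markers, are exact conditional intervals of the reads. Intervals cover counting error only. The study's 2-fold size was used without its p-value, since 1 library per group gives no spread.

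The 10 genes, the 10 pathway lists and the 11 marker lists were chosen with earlier results of these data known. Of each pathway list, up to 3 genes with the largest ratio among those with at least 20 reads and the most abundant one were named, and some items are not reported here. Of the listed genes, 3 were matched under an older symbol and 4 were not matched. The ITAM was searched as 2 tyrosines, each followed 3 residues on by leucine or isoleucine, with 6 to 8 residues between these units. The ITIM was searched as a tyrosine that has isoleucine, leucine, valine or serine 2 residues before and leucine, isoleucine or valine 3 residues after. Transcripts were those of GENCODE M21.

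Alternatives were pseudocounts of 1 and 0.01 FPKM, other filters, scalings, thresholds and intervals. Python 3.11.15, numpy 2.4.6, pandas 2.3.3, scipy 1.17.1 and Biopython 1.88 were used, and steps were tested on simulated data. The qPCR, protein and tissue measurements were not analysed here.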

Additional observations from a re-analysis of the deposited data

How the results depend on the processing

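The 10 genes' ratios kept their direction and stayed within the counting interval in all 50 values under 5 settings, which were pseudocounts of 1 and 0.01 FPKM and 3 rescalings of the libraries. The kept direction was fixed beforehand and is no sign of stability. An equal pseudocount in both pools cannot reverse a ratio. The rescalings shifted ratios by 0.07 or less, below the size of the smallest ratio, that of *Fcgr2b*. The size of the ratios moved by over 1.5 times for *Fcgr1*, from −0.56 to −0.28 with a pseudocount of 1 FPKM, and for *Fcgr2b*, from −0.11 to −0.04 with TPM. With TPM the median ratio of the 10 genes was 0.38 in place of 0.30. This rescaling shifts ratios by 0.07 before 0.1 is added, and *Fcgr1*, after it is added, came to −0.52 from −0.56. With TPM *Tyrobp* also joined the genes with an interval above 0, making 6. With the median ratio of all genes set to 0, *Fcgr4* left them, making 4. With a 99% interval, 3 genes lay above 0. At a 1.5-fold size, 1 gene, *Cd68*, passed, and none at 2-fold; *Fcgr4* was 1.51-fold higher before 0.1 FPKM was added and just missed it after. The change of the activating to inhibitory ratio was −0.52 with *Fcgr1* alone and 0.70 with *Fcgr4* alone, against 0.40 with all 3. Other *Fcgr2b* lengths left it at 0.40 by construction, because a length cancels between the pools. No paired analysis was possible because each group had 1 library, and none could be left out. Depth limits *Fcgr1*, *Fcgr3* and *Fcgr4* most, at 76 to 131 reads in both libraries together.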
